A study of Mus musculus with 36 samples.

Results

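The liver response common to red and tangerine tomato powder is described here from 24 of 36 RNA-seq libraries, 12 from mice fed red and 12 from mice fed tangerine tomato powder, compared as a pool with the 12 control libraries. The 24 were taken by the diet in their labels, and each powder was given equal weight. All mice were C57BL/6 males aged 10 weeks that had eaten their diet for 6 weeks from 4 weeks of age. Control mice ate AIN93G, a purified rodent diet, and the labels give the other diets as supplemented with red or tangerine tomato powder at 10% by weight. No mouse number occurred in more than 1 diet and each library was taken as 1 mouse, although the labels allow for fewer than 12 mice in a group. Total counts ran from 21290169 to 33810573 per library. No difference between the tomato and control means was found (two-sided permutation test, p = 0.417). Red 186 and tangerine 216 stood apart by markers of T cells and of pancreas, and counts without them are given at the end. Tangerine 192 had the highest sums of cholangiocyte (131 CPM, control maximum 49.98) and neutrophil markers (5.53 CPM, control maximum 1.21). Control 137 had the lowest sums of Kupffer cell (127 CPM) and endothelial markers (88.6 CPM).

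Red tomatoes carry lycopene mainly as the all-trans form, and tangerine tomatoes carry mainly cis forms of lycopene and its precursors, so the powders share a plant matrix and differ in their carotenoids. The liver handles such plant compounds with phase I enzymes, chiefly cytochrome P450s, and with phase II enzymes that conjugate the products. Much of this is switched on by the nuclear receptors CAR (constitutive androstane receptor, gene Nr1i3) and PXR (pregnane X receptor, gene Nr1i2) and by the factor NRF2 (gene Nfe2l2), which the protein KEAP1 holds back until electrophiles reach the cell. Cyp2c29 and Cyp2b10 are textbook CAR targets in mouse liver. In these whole liver samples the pooled comparison addresses which transcripts differ from control on average over both powders. A change on a single powder can be enough for such a difference, so each powder is also compared separately below.

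Across 14068 tested genes, 1 gene (0.00711%) passed an adjusted p of 0.05 in the pooled comparison, and that gene was Cyp2c29, which rose on both powders (edgeR quasi-likelihood test with Benjamini-Hochberg adjustment, the test behind every adjusted p below unless another tool is named). The next smallest adjusted p was 0.091, for Cyp2c53-ps. At an unadjusted p under 0.05, 952 genes (6.77%) differed, 429 with a higher mean on tomato (3.05%) and 523 with a lower one (3.72%). The count of 1 was the same in 31 of the 36 fits that each left out 1 library. It was 7 without control 189, 3 without red 177, and 2 without red 170, red 186 or red 204. DESeq2 called 12 genes.

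A stricter reading asks for a difference on each powder separately. Against control, red alone gave 21 genes at an adjusted p under 0.05 (0.149%) and 1872 at an unadjusted one (13.3%), and tangerine alone gave 2 (0.0142%) and 770 (5.47%). When the larger of the 2 single-powder p-values was taken for each gene and adjusted over all genes, Cyp2c29 alone passed (1 of 14068, 0.00711%, adjusted p 0.00476). At an unadjusted p under 0.05 on each powder with 1 direction, 151 genes (1.07%) were found, 75 higher (0.533%) and 76 lower (0.54%) on tomato. A further 21 genes were under 0.05 on each powder in opposite directions. Between the powders, 241 of all 14068 genes (1.71%) differed at an adjusted p under 0.05 and none of the 151 did, which their selection for 1 direction on each powder favours. Both single-powder comparisons use the same 12 controls, so these counts are a description and were not tested. Without control 137 the count of 151 was 217. Below, a gene that has only an unadjusted p under 0.05 is given by its values, since it did not pass the test.

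Cyp2c29 encodes a cytochrome P450 of the Cyp2c family, which oxidises drugs, steroids and arachidonic acid. The gene (ENSMUSG00000003053) spans positions 39269405 to 39330713 on the plus strand of chromosome 19 in GRCm38. In control livers it had 563 CPM (read counts scaled to a common library size by edgeR) in the lowest library, a median of 687 and 986 in the highest. On red powder the lowest, median and highest libraries had 919, 1194 and 1581 CPM, and on tangerine powder 787, 1052 and 1251 CPM. All 24 tomato libraries were above the control median, and 19 of 24 were above the highest control, 10 of them on red and 9 on tangerine.

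Mean Cyp2c29 abundance was 696 ± 116 CPM on control, 1218 ± 217 on red and 1035 ± 142 on tangerine (SD, n = 12 each, as for every ± on CPM below). The pooled log2 fold change was 0.69 (SE 0.082, adjusted p 5.57e-06), a 1.61-fold rise. It was 0.81 on red and 0.57 on tangerine. The difference of tangerine from red was -0.24 (SE 0.092, adjusted p 0.199), which did not pass, and it does not show that the powders act alike on this gene. The lengths used next join all annotated exons of a gene: 3061 bases for Cyp2c29, 1732 for Cyp2c67 and 1981 for Cyp2c70. The order of the 3 genes depends on these lengths, and other lengths were not tried. It also depends on how reads shared between genes were counted, which is not known. In the annotated transcripts, 52.8% of the 50-base stretches of Cyp2c67 also occurred in another gene. The share was 4.25% for Cyp2c29 and 0% for Cyp2c70. Per kilobase of exon, Cyp2c29 had 228 CPM on control, below Cyp2c67 at 302 and Cyp2c70 at 295. On red it had 398 CPM per kilobase and on tangerine 338, above the means of Cyp2c67 (301 and 327) and Cyp2c70 (313 on both).

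The promoters of Cyp2c29 and of the 2 family members that also had an unadjusted p under 0.05 on each powder, Cyp2c50 and Cyp2c37, are shown because their genes had higher means together. The windows are the 250 bases before the RefSeq transcript start on GRCm38.p6, plus strand: chr19:39286835-39287084 for Cyp2c29, chr19:40089429-40089678 for Cyp2c50 and chr19:39992174-39992423 for Cyp2c37. Capitals mark the hexamers AGGTCA or AGTTCA, which nuclear receptors such as CAR and PXR bind as repeats, searched on both strands (a match on the minus strand reads as TGACCT or TGAACT).
Cyp2c29: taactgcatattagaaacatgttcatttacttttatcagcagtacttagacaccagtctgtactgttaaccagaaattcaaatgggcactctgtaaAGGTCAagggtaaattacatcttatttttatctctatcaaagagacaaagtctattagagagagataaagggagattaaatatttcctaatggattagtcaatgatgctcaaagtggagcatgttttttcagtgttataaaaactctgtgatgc
Cyp2c50: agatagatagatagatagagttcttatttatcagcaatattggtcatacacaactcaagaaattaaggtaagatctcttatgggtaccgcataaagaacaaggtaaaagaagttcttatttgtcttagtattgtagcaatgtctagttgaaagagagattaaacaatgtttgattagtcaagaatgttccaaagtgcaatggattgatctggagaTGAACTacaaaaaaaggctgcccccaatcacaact
Cyp2c37: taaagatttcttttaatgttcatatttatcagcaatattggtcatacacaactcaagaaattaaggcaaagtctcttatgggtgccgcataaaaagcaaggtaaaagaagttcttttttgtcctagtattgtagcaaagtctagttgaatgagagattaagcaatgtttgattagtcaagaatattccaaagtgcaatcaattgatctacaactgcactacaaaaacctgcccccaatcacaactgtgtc
The Cyp2c29 window held 1 match, AGGTCA on the plus strand, which begins at position -154 from the transcript start. The Cyp2c50 window held 1 match on the minus strand at position -35, and the Cyp2c37 window held none. Of all 32851 RefSeq windows of this length, 24.2% held a match, and no match above overlapped another. The Cyp2c37 and Cyp2c50 windows were 84.3% identical in a global alignment (215 of 255 aligned columns). The transcript start of Cyp2c29 in RefSeq lies inside the longer span that GENCODE gives the gene.

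**Figure D1:**
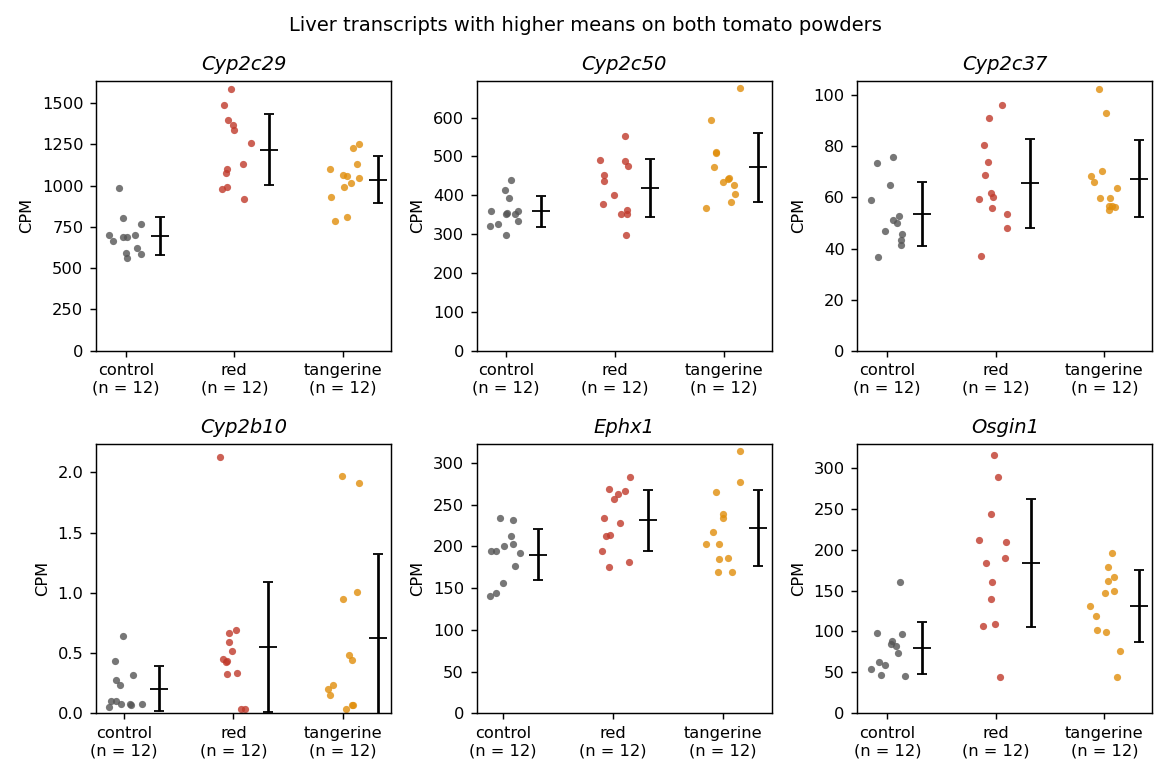
CPM of 6 transcripts in each of the 36 libraries, by diet (points), with the mean and SD beside them (n = 12 per diet). For Cyp2c29, 19 of the 24 tomato libraries lie above the highest control, whereas the other 5 transcripts overlap more with control.

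Within the Cyp2c family, 13 of the 15 listed genes passed the filter on low counts, and 9 had a positive and 4 a negative pooled log2 fold change, with a median of 0.09 beside -0.01 over all tested genes. Of the 13, 6 had a higher mean on tomato at an unadjusted p under 0.05 and none had a lower one (46.2% beside 6.77% of all genes): Cyp2c29, Cyp2c50, Cyp2c23, Cyp2c37, Cyp2c54 and Cyp2c55. Only Cyp2c29 passed adjustment. The list was drawn up with the result on Cyp2c29 known.

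Cyp2c50, an arachidonic acid epoxygenase, had control libraries from 298 to 440 CPM with a median of 353. Red libraries ran from 298 to 552 (median 420) and tangerine libraries from 368 to 675 (median 445). The groups overlapped, with 12 of 24 tomato libraries above the highest control. Its pooled log2 fold change was 0.31 (SE 0.081, adjusted p 0.275). Cyp2c37, a less abundant neighbour, had medians of 50.7, 61.0 and 61.8 CPM on control, red and tangerine, with 22 of 24 tomato libraries above the control median and 5 above the highest control (log2 fold change 0.31, SE 0.12, adjusted p 0.604). Cyp2c54 had 156 ± 33.3, 180 ± 49.1 and 214 ± 60.7 CPM (0.33, adjusted p 0.604), and Cyp2c23, called Cyp2c44 in older lists, had 268 ± 44.5, 292 ± 36.8 and 330 ± 44.9 CPM (0.21, adjusted p 0.578).

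The remaining members bracket this group. Cyp2c55 had 2.43 CPM on control, 3.56 on red and 2.45 on tangerine, and its tangerine minus red difference of -0.54 passed the test (adjusted p 0.026), so its pooled value of 0.28 is an average of unlike powders. The abundant Cyp2c67 and Cyp2c70 had pooled log2 fold changes of 0.05 and 0.09 with adjusted p of 0.918 and 0.897. Cyp2c38, Cyp2c39, Cyp2c68 and Cyp2c69 had values from -0.23 to -0.07, and Cyp2c40 had 0.04. Cyp2c65 and Cyp2c66 did not pass the filter on low counts.

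Similar sequences limit how far the members can be told apart, since the way shared reads were counted is not given in the sources used here. In the annotated transcripts, 4.25% of the 50-base stretches of Cyp2c29 also occurred in some other gene of any family, nearly all in the pseudogene Cyp2c53-ps (4.09%). The shares were 18.3% for Cyp2c50, 30.1% for Cyp2c37, 25.7% for Cyp2c54, 52.8% for Cyp2c67 and 60.3% for Cyp2c40. Cyp2c53-ps, whose span overlaps that of Cyp2c29 and which was picked once its values were known, had only 0.316 ± 0.124, 0.928 ± 0.438 and 0.560 ± 0.192 CPM on control, red and tangerine.

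**Figure D2:**
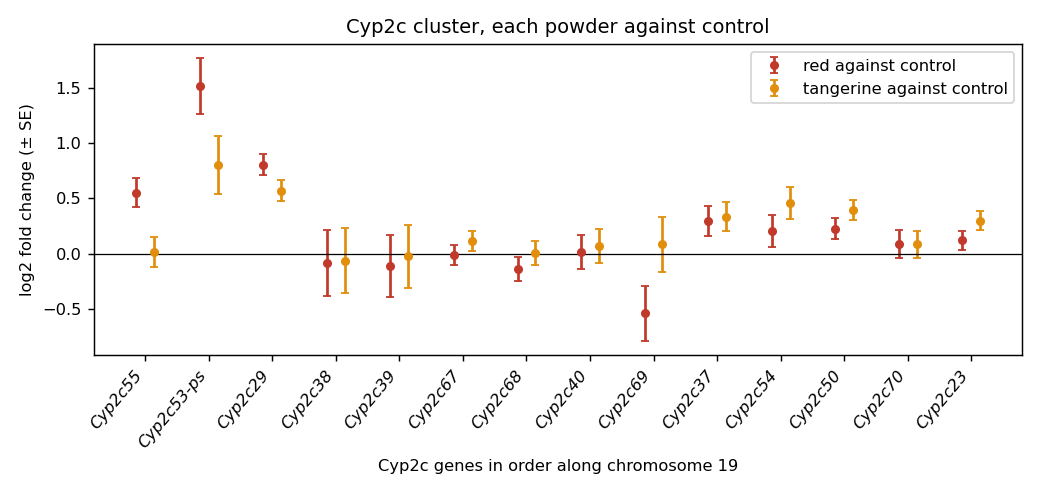
Log2 fold change against control (± SE) of 14 tested Cyp2c genes, Cyp2c53-ps included, in their order along chromosome 19, for red (red points) and tangerine powder (orange points). Cyp2c29 stands at 0.81 and 0.57, and Cyp2c38 and Cyp2c39, the next genes shown, lie below 0 on both powders. Cyp2c37, Cyp2c54 and Cyp2c50, farther along, lie above 0 on both, as do Cyp2c23, Cyp2c40, Cyp2c53-ps, Cyp2c55 and Cyp2c70.

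Of 25 tested genes listed as CAR or PXR targets or the receptors themselves, 15 had a positive and 10 a negative pooled log2 fold change (median 0.10). At an unadjusted p under 0.05, 8 had a higher and 1 a lower mean on tomato (36%, beside 6.77% of all genes). The 8 were Cyp2c29, Cyp2c37 and Cyp2c55 from the family above with Cyp2b10, Ephx1, Ces2a, Gsta1 and Abcc3. On each powder 6 of them were under 0.05, whereas Cyp2c55 and Abcc3 were so on red only. The listed targets Cyp3a11, Por and Alas1 were not under 0.05 in the pooled comparison. The receptor genes themselves had pooled log2 fold changes of -0.11 for Nr1i2 (adjusted p 0.846) and 0.10 for Nr1i3 (adjusted p 0.918).

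Cyp2b10, the P450 most often used as a readout of CAR, was barely detected. Control libraries ran from 0.050 to 0.640 CPM (median 0.104), red libraries from 0.039 to 2.13 (median 0.445) and tangerine libraries from 0.036 to 1.97 (median 0.339). The groups overlapped, 7 of 24 tomato libraries were above the highest control, and 5 control and 5 tomato libraries held fewer than 3 counts. Its log2 fold change of 1.47 (SE 0.51, adjusted p 0.562) was the largest positive value among the 75 genes higher on each powder.

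Ephx1, microsomal epoxide hydrolase, had 140 to 234 CPM on control (median 194), 175 to 283 on red (median 231) and 169 to 314 on tangerine (median 210). The pooled log2 fold change was 0.25 (SE 0.088, adjusted p 0.562), with 11 of 24 tomato libraries above the highest control. Ces2a, a carboxylesterase, had 183 ± 20.5, 203 ± 27.8 and 211 ± 24.8 CPM on control, red and tangerine (0.18, adjusted p 0.596). Gsta1, an alpha-class glutathione S-transferase, had 0.941 ± 0.384, 1.46 ± 0.730 and 1.46 ± 0.782 CPM (0.65, adjusted p 0.604). Abcc3, which exports conjugates across the basolateral membrane, had 75.8 ± 16.3, 106 ± 26.3 and 89.7 ± 25.1 CPM (0.36, adjusted p 0.562). The 1 listed gene with a lower mean was the efflux pump Abcb1a, at -0.46 (adjusted p 0.465).

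Among 25 tested NRF2 targets and partners, 5 had higher and none a lower mean at an unadjusted p under 0.05 (20%, beside 6.77% of all genes), with a list median of 0.07. They were Osgin1, Keap1, Gclm and, shared with the CAR and PXR list, Ephx1 and Gsta1. On each powder 4 of them were under 0.05, whereas Gclm was so on red only (log2 fold change 0.27, and 0.11 on tangerine). The listed targets Nqo1, Gclc, Hmox1, Txnrd1 and Srxn1 were not under 0.05 in the pooled comparison. Osgin1, an oxidative stress induced growth inhibitor, had 46.3 CPM in the lowest control, a median of 78.2 and 161 in the highest. Red libraries had a lowest value of 44.3, a median of 187 and a highest of 316, and tangerine libraries 44.8, 139 and 195. The groups overlapped, since 2 tomato libraries were below the lowest control and 11 were above the highest.

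The pooled log2 fold change of Osgin1 was 0.97 (SE 0.21, adjusted p 0.139), or 1.95-fold. The highest control value was that of control 189, the library whose omission raised the count of called genes to 7. Keap1, the inhibitor of NRF2, had 19.7 ± 2.09, 21.5 ± 1.57 and 21.7 ± 1.09 CPM on control, red and tangerine (0.14, adjusted p 0.545), with 23 of 24 tomato libraries above the control median. Nfe2l2 itself had a pooled log2 fold change of -0.04 (adjusted p 0.929).

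Of 20 glutathione S-transferases tested, 1 had an unadjusted p under 0.05 (5%, beside 6.77% of all genes). In a list of 19 UDP-glucuronosyltransferases and genes that make their substrate, 12 were tested. Of these, 2 had an unadjusted p under 0.05 (16.7%), in opposite directions. They were Ugt2b35 at 0.22 and Ugp2, which makes UDP-glucose, at -0.17. None of the listed Ugt1a genes, Ugt1a1 and Ugt1a6a among them, passed the filter on low counts, so these values do not describe them. All 8 tested genes of sulfonation had negative pooled values (median -0.10), 2 of them at an unadjusted p under 0.05 (25%). Their median was -0.20 on red and -0.02 on tangerine. In the AHR pathway, 2 of 7 tested genes had an unadjusted p under 0.05 (28.6%), in opposite directions. Tiparp had a lower mean (-0.22, adjusted p 0.71) and Cyp1a2 a higher one. The listed Ahrr, Cyp1b1, Ugt1a6a and Aldh3a1 did not pass the filter on low counts. Cyp1a2, which metabolises caffeine and aromatic amines, had 401 ± 70.9, 431 ± 70.6 and 583 ± 84.1 CPM on control, red and tangerine. Its log2 fold change was 0.32 pooled (adjusted p 0.275), 0.10 on red and 0.54 on tangerine, and the tangerine minus red difference of 0.44 passed the test (adjusted p 0.0155). Of 26 carotenoid and retinoid genes, 1 had an unadjusted p under 0.05 (3.85%). The cleavage enzymes Bco1 and Bco2 had pooled log2 fold changes of -0.04 and 0.03, and the carotenoid receptor gene Scarb1 had 0.07, with adjusted p of 0.944, 0.930 and 0.855.

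Erbb3, outside these lists, a receptor of the epidermal growth factor receptor family, had 96.5 to 169 CPM on control (median 136), 144 to 192 on red (median 166) and 129 to 241 on tangerine (median 185). In 23 of 24 tomato libraries it was above the control median, and in 14 above the highest control. Its pooled log2 fold change was 0.35 (SE 0.077, adjusted p 0.139).

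Wdr81, an endosomal trafficking protein gene, had 33.7 ± 3.35, 41.5 ± 5.07 and 40.8 ± 5.59 CPM on control, red and tangerine (0.29, adjusted p 0.139), with 15 of 24 tomato libraries above the highest control. Dlc1, a RhoGAP and tumour suppressor gene, had 50.5 ± 6.73, 62.2 ± 9.73 and 60.6 ± 7.13 CPM (0.28, adjusted p 0.257). Kank1, a regulator of actin, had 53.0 ± 7.18, 64.1 ± 8.05 and 63.8 ± 9.21 CPM (0.27, adjusted p 0.272). The red and tangerine means of these 3 genes lay close together, with tangerine minus red differences of -0.02, -0.04 and -0.01. Arhgef7, Khnyn, Snx29 and Slc22a14 had pooled log2 fold changes from 0.21 to 0.44 and adjusted p from 0.275 to 0.626.

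The 75 genes with higher means had a median absolute log2 fold change of 0.25, and 11 of them reached 0.5. The 76 with lower means had a median of 0.29, and 15 reached 0.5. The median signed value over all tested genes was -0.01. The red change was the larger in 40 of the 75 and in 45 of the 76. Median exon length was 4693 bases in the 75 and 3622 in the 76, beside 3988 over all tested genes. On chromosome 19, which holds the Cyp2c cluster, lay 5 of the 75 (6.67%) and 1 of the 76, beside 3.48% of all tested genes.

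**Figure D3:**
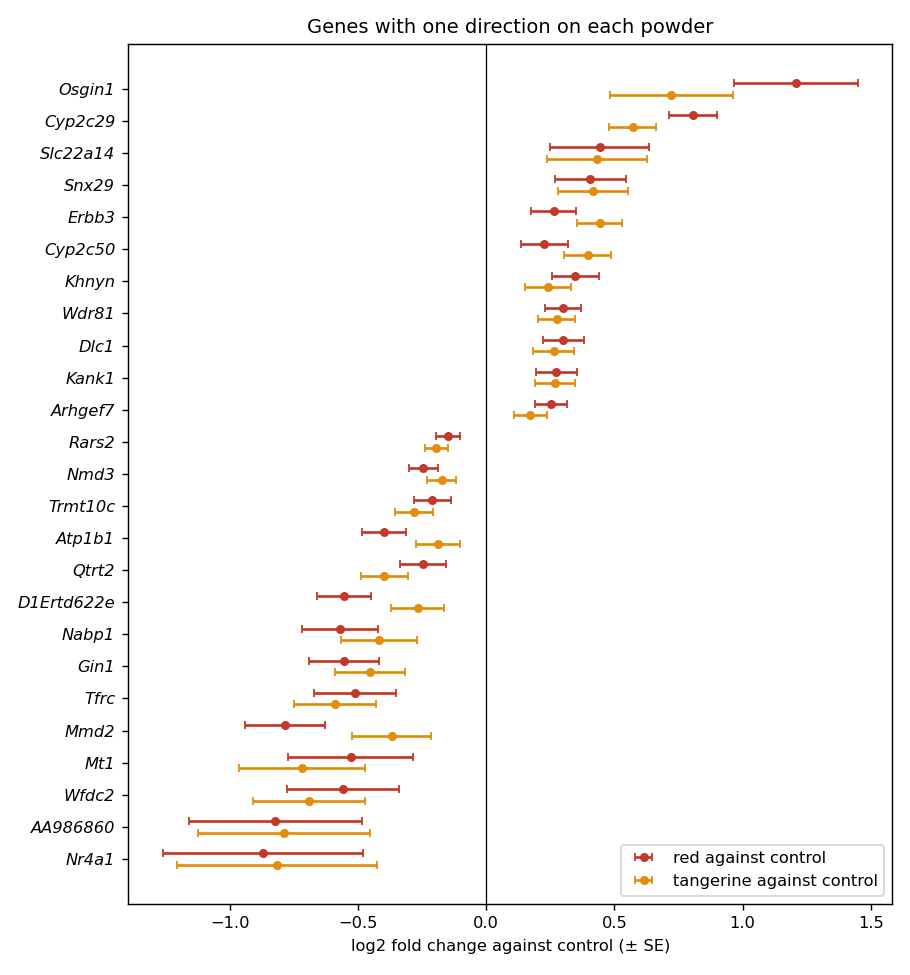
Log2 fold change against control (± SE) on red and on tangerine powder for 25 genes named by rule among those with an unadjusted p under 0.05 and 1 direction on each powder. Both points of each gene lie on the same side of 0 because the rule required it. Cyp2c29 is the only one past an adjusted p of 0.05 in the pooled comparison.

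Among the genes with lower means, D1Ertd622e had the smallest pooled p. It ran from 12.6 to 23.6 CPM on control (median 15.9), 10.0 to 15.1 on red (median 11.3) and 9.84 to 18.6 on tangerine (median 13.96). In 12 of 24 tomato libraries it was below the lowest control, and in 4 it was above the control median. Its pooled log2 fold change was -0.41 (SE 0.089, adjusted p 0.139).

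Mmd2, a membrane protein of the progestin and adipoQ receptor family, had 8.85 ± 2.49, 5.13 ± 1.33 and 6.86 ± 2.00 CPM on control, red and tangerine. Of 24 tomato libraries, 1 was above the control median (-0.58, SE 0.13, adjusted p 0.139). Nmd3, which carries the large ribosomal subunit out of the nucleus, had 22.4 to 32.8 CPM on control (median 27.0), 20.2 to 26.6 on red (median 22.9) and 20.7 to 26.0 on tangerine (median 23.9). All 24 tomato libraries were below its control median, although only 6 were below the lowest control (-0.21, SE 0.048, adjusted p 0.139). Having all 24 tomato libraries on 1 side of the control median was uncommon, at 14 of 14068 genes (0.0995%). Among those 14, the genes with an unadjusted p under 0.05 on each powder were Cyp2c29, E2f1, Tm9sf4 and Nmd3, of which E2f1 and Tm9sf4 were chosen after their values were seen.

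Tfrc encodes the transferrin receptor, which takes up iron and whose transcript is stabilised when cellular iron is low. It had 9.20 to 29.4 CPM on control (median 19.1), 8.09 to 23.7 on red (median 12.3) and 8.42 to 17.0 on tangerine (median 13.2). Of 24 tomato libraries, 22 were below the control median and 5 below the lowest control. The pooled log2 fold change was -0.55 (SE 0.14, adjusted p 0.257), at -0.51 on red and -0.59 on tangerine. In a list of iron handling genes put together after these values were seen, 15 were tested. Of these, 2 had an unadjusted p under 0.05 (13.3%, beside 6.77% of all genes), both with lower means. They were Tfrc and the metalloreductase Steap2 (-0.31, adjusted p 0.562). Over the 15 genes, 10 had a positive and 5 a negative pooled log2 fold change, with a median of 0.03. The listed Trf, Hamp and Hamp2 did not pass the filter on low counts.

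The metallothioneins, small proteins that bind zinc and copper, had lower means on both powders. Mt1 had 5.78 to 23.0 CPM on control (median 7.45), 2.53 to 13.8 on red (median 5.45) and 3.78 to 8.32 on tangerine (median 5.58), with 14 of 24 tomato libraries below the lowest control. The pooled log2 fold change was -0.62 (SE 0.21, adjusted p 0.545). Mt2, chosen after its values were seen, had 0.555 ± 0.480, 0.234 ± 0.194 and 0.217 ± 0.103 CPM, with fewer than 3 counts in 1 control and 5 tomato libraries (-1.22, SE 0.33, adjusted p 0.314). A list of 13 tested metallothionein and zinc transporter genes was also made after the values were seen. Of these, 3 had an unadjusted p under 0.05 (23.1%, beside 6.77% of all genes), 1 higher and 2 lower.

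**Figure D4:**
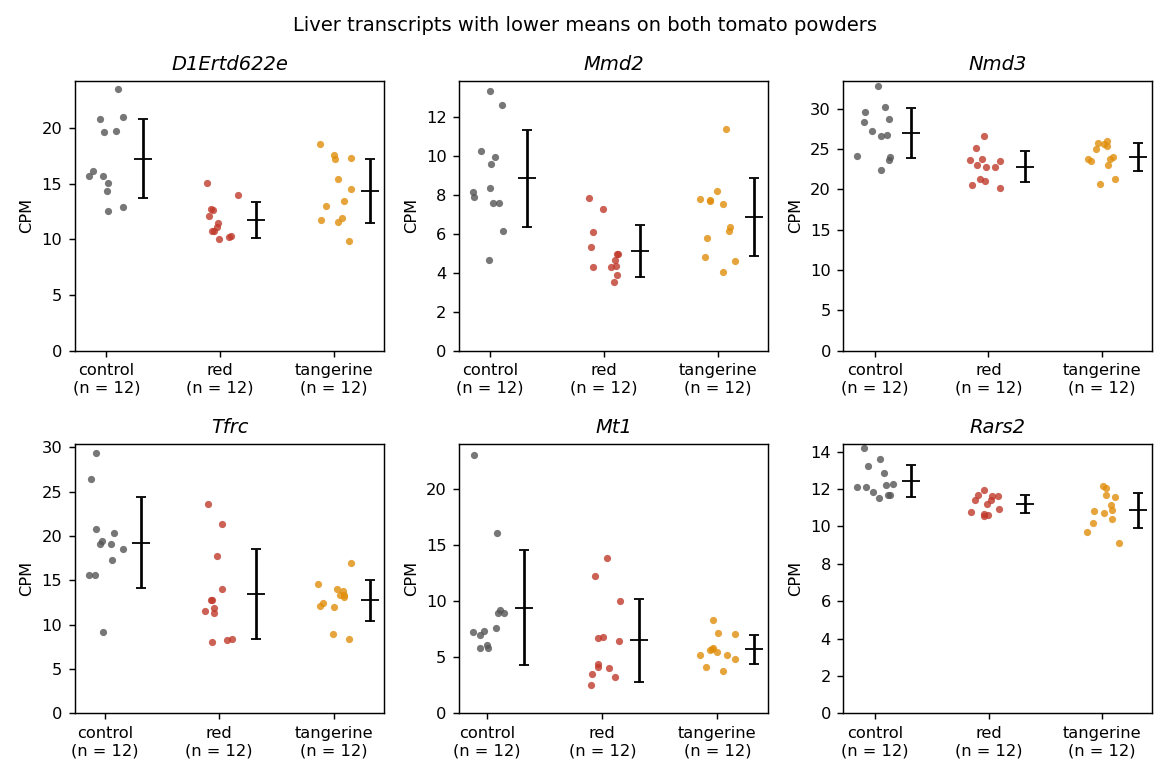
CPM of 6 transcripts with lower means on both powders in each of the 36 libraries, by diet (points), with the mean and SD beside them (n = 12 per diet). The diets overlap for every transcript shown. For Nmd3, all 24 tomato libraries lie below the control median of 27.0.

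Rars2, mitochondrial arginyl-tRNA synthetase, had 12.4 ± 0.842, 11.2 ± 0.479 and 10.9 ± 0.935 CPM on control, red and tangerine. In 16 of 24 tomato libraries it was below the lowest control (-0.17, SE 0.040, adjusted p 0.140). Qtrt2, a subunit of the enzyme that puts queuine into tRNA, had 5.54 ± 0.939, 4.67 ± 0.497 and 4.20 ± 0.723 CPM (-0.32, adjusted p 0.203). Trmt10c, a subunit of mitochondrial RNase P, had 19.3 ± 3.19, 16.7 ± 1.54 and 15.9 ± 1.80 CPM (-0.25, adjusted p 0.272).

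Ribosome assembly was looked at through a list of 53 factors made after values had been seen, those of Nmd3 among them. Its counts include Nmd3 and other genes already seen, so they describe these data and are no independent support. Of the 53 factors, 47 had a negative pooled log2 fold change, with a median of -0.08. At an unadjusted p under 0.05, 15 had a lower mean and none a higher one (28.3%, beside 6.77% of all genes), and 7 had it on each powder. Examples are Wdr43, a component of the small subunit processome (-0.23, adjusted p 0.465), Esf1 (-0.15, adjusted p 0.535) and the nucleolar genes Gnl3 and Nop2 (-0.26 each, adjusted p 0.604 each). None passed adjustment.

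Immediate early genes, which are transcribed soon after a stimulus, were listed after values had been seen, those of Nr4a1 among them. Of 24 tested, 8 had a lower mean on tomato at an unadjusted p under 0.05 and none a higher one (33.3%, beside 6.77% of all genes). The list's median was -0.18. The 8 include Nr4a1 and other genes already seen, so the share describes these data and is no independent support. Nr4a1, an orphan nuclear receptor, had 0.782 to 12.3 CPM on control (median 1.80), 0.554 to 2.96 on red (median 1.32) and 0.324 to 3.27 on tangerine (median 1.39). The groups overlapped widely, and 8 of 24 tomato libraries were above the control median (-0.84, SE 0.33, adjusted p 0.626).

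The remaining lower genes named by rule were Gin1, Atp1b1, Nabp1, AA986860 and Wfdc2. Gin1 had 9.10 ± 2.53, 6.19 ± 1.28 and 6.65 ± 1.68 CPM on control, red and tangerine (-0.50, adjusted p 0.139). Atp1b1, the beta subunit of the sodium pump, had 68.5 ± 12.4, 52.0 ± 4.66 and 60.2 ± 9.64 CPM (-0.29, adjusted p 0.272). Nabp1, AA986860 and Wfdc2 had pooled log2 fold changes of -0.49, -0.81 and -0.62, with adjusted p of 0.272, 0.577 and 0.465.

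In lipid metabolism the list medians lay farther from 0 on red than on tangerine. Of 24 tested genes of fatty acid and triglyceride synthesis, 23 had a negative pooled log2 fold change (median -0.24, with -0.30 on red and -0.16 on tangerine). At an unadjusted p under 0.05, 4 had a lower mean (16.7%, beside 6.77% of all genes), Thrsp, Elovl6 and Acss2 among them.

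Thrsp, a lipogenic regulator, had 1205 ± 424 CPM on control, 594 ± 242 on red and 1227 ± 544 on tangerine, so its pooled value of -0.50 (adjusted p 0.695) is an average of unlike powders. Its tangerine minus red difference of 1.05 passed the test (adjusted p 0.0287). Those of Elovl6 (0.20, adjusted p 0.799) and Idi1 (0.36, adjusted p 0.287) did not.

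Of 24 cholesterol synthesis genes, 7 had a lower mean at an unadjusted p under 0.05 (29.2%, beside 6.77% of all genes) and none a higher one, but none had it on each powder. The list's median was -0.26 on red and 0.01 on tangerine. Idi1, isopentenyl diphosphate isomerase, had 301 ± 118, 194 ± 54.4 and 249 ± 39.4 CPM on control, red and tangerine (-0.45, adjusted p 0.481). Of 28 genes of fatty acid oxidation and PPARA targets, 25 had a positive pooled value, beside 6394 of all 14068 genes, and none had an unadjusted p under 0.05. That list's median was 0.10 pooled, 0.18 on red and 0.01 on tangerine.

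Of the 17 bile acid genes and 18 acute phase genes tested, none had an unadjusted p under 0.05. The 20 interferon response genes included 2 and the 20 genes of endoplasmic reticulum stress and heat shock 1. Of 16 clock genes, 8 had a negative pooled value. At an unadjusted p under 0.05, 2 had a lower mean (12.5%, beside 6.77% of all genes). They were Bhlhe40 (-0.59 on red and -0.09 on tangerine) and Per2 (-0.57 and -0.03). The clock score, the first principal component of log2 CPM over 10 clock genes, was 0.704 ± 2.47 on control, -2.29 ± 2.03 on red and 1.59 ± 1.94 on tangerine, so the powders stood on opposite sides of control. Pooled, it differed from control by -1.06 (two-sided permutation test over 36 libraries, p = 0.272).

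**Figure D5:**
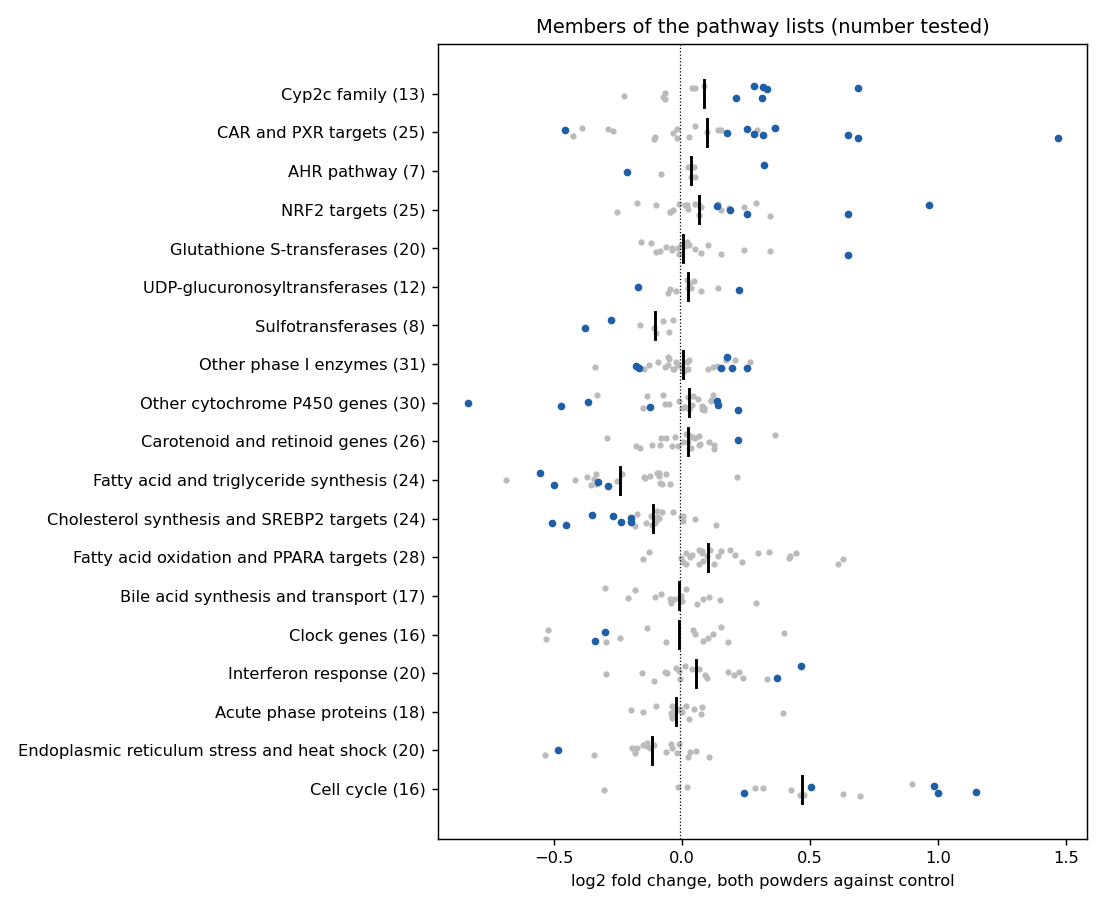
Pooled log2 fold change of each tested member of the 19 pathway lists (points), with an unadjusted p under 0.05 in blue and other members in grey. Black bars are list medians and the dotted line is the median of all tested genes, -0.01. The blue points of the Cyp2c family all lie to the right, and those of the cholesterol list to the left.

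Among the pathway lists, cell cycle genes had the median farthest from 0, at 0.47. At an unadjusted p under 0.05, 5 of 16 had a higher mean (31.2%, beside 6.77% of all genes) and none a lower one. None of the 16 was under 0.05 on each powder with 1 direction. The median of 0.47 was smaller without red 186 and tangerine 216. Red 186 held 283 CPM summed over 11 T cell markers, against 4.44 to 8.06 CPM in controls, and its adipocyte marker sum of 10.4 CPM was above the control maximum of 4.94. Tangerine 216 held 11.8 CPM of pancreatic acinar markers, against at most 0.0709 in controls. Without these 2 libraries the cell cycle median was 0.25, with 4 higher and 1 lower. The count for the Cyp2c family stayed at 6 higher and 0 lower without them, and that for CAR and PXR targets at 8 and 1. The count for NRF2 targets became 6 and 1, that for fatty acid and triglyceride synthesis 0 and 8, that for cholesterol synthesis stayed at 0 and 7, and that for ribosome assembly became 0 and 13. For iron handling, 2 genes had a higher and 2 a lower mean without these 2 libraries, beside 0 and 2 with all libraries. Over all genes, 1090 of 14060 (7.75%) then had an unadjusted p under 0.05.

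Hepatocyte markers summed to between 102100 and 144600 CPM over the libraries. None of 12 marker lists differed between the tomato and control libraries at an adjusted p under 0.05 (permutation tests, adjusted over the lists), with or without the 2 libraries. With all libraries the closest were hepatocytes (difference in log2 of the sum -0.08, p = 0.0499, adjusted 0.316) and T cells (0.40, p = 0.0527, adjusted 0.316), and without the 2 libraries adipocytes (-0.35, p = 0.0399, adjusted 0.320). Lrat, Ms4a1, Alas2 and Cela2a were at 0 in all libraries, and the hepatocyte marker Trf did not pass the filter on low counts. The counting tool is not known, and whether reads of these genes were lost in counting was not tested. Their low counts are therefore not read as absence from the tissue. In whole tissue, fewer cells of a type and less RNA per cell cannot be told apart.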

How the data were processed

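The authors deposited 1 table of raw read counts per gene (53715 identifiers, 36 libraries). Per the labels' protocols, libraries came from 1 preparation kit that keeps strand. FastQC, Trimmomatic, edgeR and GRCm38.p6 are named in the submitters' processing notes. Aligner, counter, annotation and strand setting are not given in the sources used here. Symbols and positions came from GENCODE M21 (53620 identifiers matched), and promoters from RefSeq on GRCm38.p6.

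Genes were filtered with filterByExpr (14068 kept), scaled by TMM and tested with edgeR 4.0.16 (quasi-likelihood, robust) on all 36 libraries, without covariates, with Benjamini-Hochberg adjustment over all genes. The pooled contrast was the mean of red and tangerine minus control. An SE is the absolute log2 fold change divided by the root of F. Permutation tests used 100000 resamples (scipy 1.17.1). Libraries with fewer than 3 counts of a gene are named as such, a limit that covers counting error only.

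Named genes were those called, the 10 higher and 10 lower with the smallest pooled p and the 5 with the largest change per direction among genes with 1 direction on each powder and mean log2 CPM of at least 1, the Cyp2c genes, up to 3 per pathway list, and 7 regulators and carotenoid genes. Others named are Acss2, Gclm, Mt2, Steap2, Wdr43, Esf1, Gnl3, Nop2, E2f1, Tm9sf4, Cyp2c53-ps and Ntrk2, taken after their values were seen. The members, lists and rule were chosen with earlier results of these data known. Alternatives were RLE scaling, other filters, DESeq2 1.42.0, limma-voom (limma 3.58.1), sva 3.50.0, covariates and leaving out libraries. The edgeR script was tested on simulated data. A few named genes are not reported here.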

Additional observations from a re-analysis of the deposited data

Results flagged for a closer look

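For 7 of the genes considered, the powders differed from each other (edgeR, tangerine minus red, adjusted over all genes), so a pooled value averages unlike groups. Tangerine was lower than red for Cyp2c55 (-0.54 on the log2 scale, adjusted p 0.026) and for the fibrinogen chain gene Fga (-0.34, adjusted p 0.0278). Tangerine was higher than red for Cyp1a2 (0.44, adjusted p 0.0155), Thrsp (1.05, adjusted p 0.0287), the neurotrophin receptor gene Ntrk2 (0.94, adjusted p 0.0152), Ugp2, which makes UDP-glucose (0.35, adjusted p 0.0265), and Papss2, which makes the sulfate donor (0.44, adjusted p 0.0388). Ntrk2 had 58.8 ± 19.1 CPM on control, 25.5 ± 12.4 on red and 48.8 ± 9.16 on tangerine (SD, n = 12 each).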

How the results depend on the processing

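Cyp2c29 was called in all 12 settings and in every fit that left out 1 library (log2 fold change 0.66 to 0.74, adjusted p 3.44e-07 to 2.85e-05), and the number of genes passing on each powder was 1 wherever it was computed. The pooled count of 1 became 6 with no low-count filter, 12 with DESeq2, 34 with limma-voom and sample weights, 62 with surrogate variables (8 estimated, 5 used) and 2 without red 186 and tangerine 216, an omission of 2 libraries. Leaving out 1 library gave 1 to 7 called genes and 120 to 217 genes with an unadjusted p under 0.05 in 1 direction on each powder. That second count, 151, became 327 with no low-count filter, 451 with sample weights and 465 with surrogate variables, and was 104 with the clock score as covariate and 119 among genes averaging log2 CPM 1 or more. The cause was not tested. In 3 of the 12 settings, D1Ertd622e, Dlc1, Erbb3, Gin1, Mmd2, Nmd3, Ntrk2, Osgin1, Qtrt2, Rars2 and Wdr81 also passed, and Cyp2c53-ps did in 4. Of 77 genes followed over these settings (918 values), 856 values kept their direction and side of the threshold, 59 newly passed it and none lost it. Only Cyp2c29 passed in the main fit, so no other gene could lose the threshold, and most values that kept their side stayed above it. Another 3 values changed sign near 0: Ahr to 0.0164 with surrogate variables, Bco1 to 0.0062 with sample weights and Bco2 to -0.0022 with the clock score as covariate. No paired analysis was possible because no mouse number occurs in more than 1 diet. Depth limits Cyp2b10 and Mt2, which had libraries under 3 counts.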
